A study of Mus musculus with 9 samples.

Results

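The 45 genes described here are listed markers of microglia and other myeloid cells, read out in cultures of mouse cortical astrocytes. They were taken by symbol from a table of 25239 genes, and all 45 were found. The cultures were grown from the cerebral cortex of mouse pups at postnatal day 4. Treated cultures received 200 µM hydrogen peroxide (H2O2) for 3 h, were washed, and were harvested 72 h (day 3) or 24 h (day 1) after the wash. Control cultures carry that label alone, with no harvest time, and each group has 3 libraries of polyadenylated RNA. Whether the 3 libraries of a group are separate cultures is not in the labels, and p-values therefore cover the spread among these libraries only, which may be technical. The sources used here give no strain, no sex and no step that removes or keeps microglia.

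Microglia are the resident macrophages of the brain. They depend on the receptor CSF1R with its ligands CSF1 and IL-34, and on the transcription factor PU.1, encoded by Spi1. They make complement C1q, carry Fc receptors and the receptor TREM2, which signal through adaptor proteins with an activation motif (ITAM), and produce superoxide with the NADPH oxidase. Mixed glial cultures from newborn cortex usually contain some microglia on and within the astrocyte layer.

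Levels are given as deposited, in FPKM, which counts sequenced fragments relative to gene length and library size. Whole reads were worked out from the FPKM, and library totals ran from 30545004 to 36749577 reads on day 3, from 23032594 to 27850348 on day 1 and from 30278210 to 38414668 in control. Reads of Rn45s, the precursor of ribosomal RNA, made up 9.15% to 11.1% on day 3, 7.67% to 9.36% on day 1 and 9.41% to 11.9% in control. Day 1 libraries were thus shallower than control libraries and had a smaller share of this RNA, without overlap in either, and the part of both in the results was not tested. Day 3 replicate 3 stood low within its group: it was the lowest of its 3 libraries for 31 of 38 genes. Its median over them was -0.30 on the log2 scale relative to the mean of the other 2 libraries. How often this library was lowest over all genes was not counted.

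Of the 45 genes, 38 averaged 1 FPKM or more across the 9 libraries and entered the main test. The other 7 were Ikzf1, Cd33, P2ry12, P2ry13, Gpr34, Siglech and Cd86, for which a fit with no filter on low values is quoted. Fold changes come from log2(FPKM + 0.1) of rescaled values, a scale on which those of low genes are understated. The test was limma over 12611 genes, and calls needed an adjusted p (Benjamini-Hochberg, across all of these) under 0.05.

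On day 1 these genes were lower than in control as a group, with few exceptions. Of the 38 tested, 34 fell (89.5%), against 31.1% of all genes tested that fell, and 1 rose, Tmem119, against 31.1% of all genes that rose. The median log2 fold change over all 45 genes was -1.16, with quartiles of -1.39 and -0.85, which is a 2.23-fold lower level, while the median over all genes tested was -0.00. A log2 fold change of -1 or less was found for 28 of the 45, against 2.09% of all genes tested. The 45 include genes that averaged below 1 FPKM, while the 2.09% covers only genes at or above it. With no filter on low values, 39 of 45 were lower and 1 was higher, against 21.6% and 20.7% of all 20350 genes above 0. In bulk RNA, fewer microglia and less of these RNAs per microglial cell cannot be told apart.

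On day 3 none of the 38 passed the test against control, where 7.37% of all genes tested were higher and 6.45% were lower. An unadjusted limma p under 0.05 was found for 3 of the 38, a count not made here over all genes. The median log2 fold change over all 45 genes was -0.01, with quartiles of -0.09 and 0.08. Over all genes tested it was 0.01, with quartiles of -0.06 and 0.07. Limma-voom on the recovered reads called 2, Lyz2 higher and Coro1a lower, where it called 10.5% of all genes tested higher and 9.06% lower. The plot of each gene by library shows the day 1 libraries apart from the other 6 for nearly every gene.

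**Figure D1:**
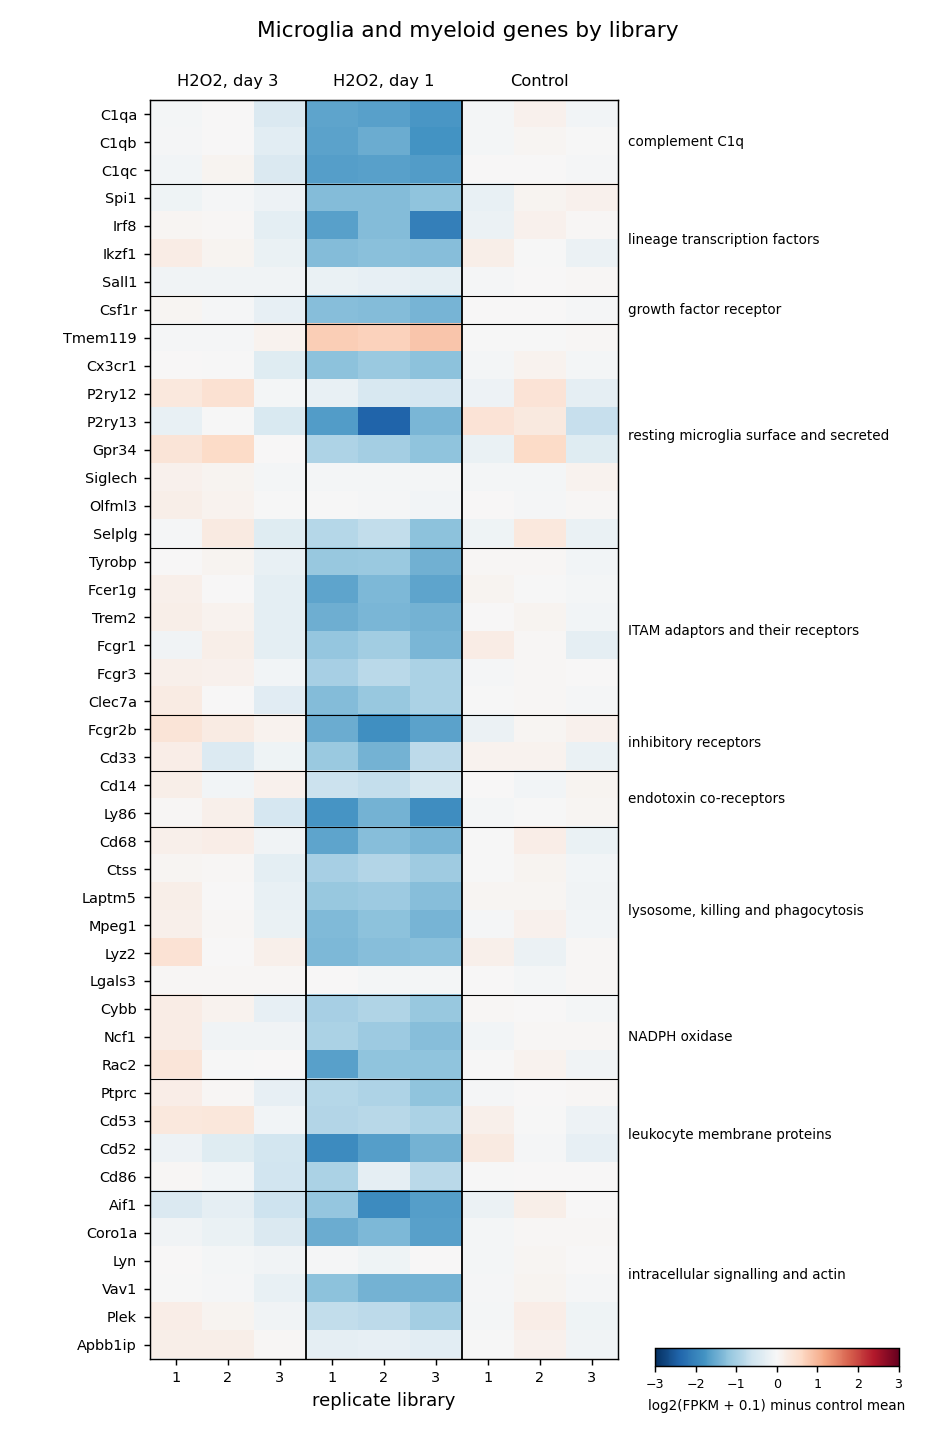
Level of each of the 45 genes (rows, grouped by role) in each of the 9 libraries (columns, by group and replicate), as log2(FPKM + 0.1) minus the mean of the control libraries; blue is lower and red higher than control. The 3 day 1 columns are blue for most rows, red for Tmem119, and pale for Lgals3, Lyn, Olfml3 and Siglech, while the day 3 columns are pale throughout.

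The 3 chains of complement C1q, the recognition molecule that starts the classical complement pathway, are encoded side by side on chromosome 4 and were among the most reduced genes on day 1. C1qa (chr4:136895916-136898844, GRCm38.p6, as are all coordinates here) was at 57.6, 60.6 and 45 FPKM in day 3 libraries, at 20, 19.3 and 17.8 in day 1 libraries and at 58.3, 66.1 and 57.1 in control libraries. C1qb (chr4:136880126-136886200) was at 48.5, 49.8 and 39.8 FPKM on day 3, at 16.2, 17.6 and 14.1 on day 1 and at 47.7, 51.7 and 48.7 in control. C1qc (chr4:136889801-136892936) was at 59.4, 66 and 46.1 FPKM on day 3, at 19.9, 20.2 and 19.6 on day 1 and at 63.2, 63.6 and 61.0 in control. Every day 1 library lay below every library of the other groups for all 3 chains, and day 3 replicate 3 was the lowest day 3 library for each.

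C1qa was 3.09-fold lower on day 1 than in control (95% interval 2.65 to 3.6, limma adjusted p = 2.59e-07), and C1qb and C1qc were 3.02-fold and 3.06-fold lower. Day 3 levels were 2.79-fold, 2.84-fold and 2.80-fold above day 1 for C1qa, C1qb and C1qc. Against control, day 3 differed by -0.15 for C1qa (log2, 95% interval -0.37 to 0.08), -0.09 for C1qb and -0.13 for C1qc, none of which passed. The 3 chains kept their proportions: the ratio of C1qa to C1qb FPKM was 1.13 to 1.22 on day 3, 1.10 to 1.27 on day 1 and 1.17 to 1.28 in control, ranges that overlap.

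The transcription factors of the lineage also fell. Spi1 (chr2:91082374-91115759), which encodes PU.1, was at 6.37, 6.85 and 6.28 FPKM on day 3, at 2.76, 2.76 and 2.95 on day 1 and at 5.99, 7.42 and 7.61 in control. It was 2.37-fold lower on day 1 than in control, with an interval of 2.09 to 2.68 (limma adjusted p = 4.14e-07), and the day 3 and control values overlapped. Irf8 (chr8:120736358-120756694), an interferon regulatory factor that acts with PU.1 in myeloid cells, was at 3.17, 3.15 and 2.47 FPKM on day 3, at 0.911, 1.18 and 0.658 on day 1 and at 2.71, 3.34 and 3.14 in control. Its fall on day 1 was 3.11-fold (interval 2.40 to 4.04), larger than the 2.37-fold of Spi1, but the 2 intervals overlap and the difference was not tested. Ikzf1, which encodes the lymphoid and myeloid factor Ikaros, averaged 1.02 ± 0.170 FPKM on day 3, 0.345 ± 0.00959 on day 1 and 0.986 ± 0.129 in control (SD, n = 3 each), and was 2.38-fold lower on day 1 in the fit with no filter.

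Sall1, a zinc finger factor that marks microglia among macrophages and is also known from neural progenitors, moved far less. It was at 14.7, 14.6 and 14.7 FPKM on day 3, at 13.7, 13.3 and 12.9 on day 1 and at 15.4, 15.8 and 16 in control. Its fall on day 1 was 1.16-fold, with an interval of 1.11 to 1.21 (limma adjusted p = 0.00011). Its SDs were 0.0456 FPKM on day 3, 0.393 on day 1 and 0.333 in control. The groups did not overlap, day 3 lay between day 1 and control, and day 3 did not pass against control (adjusted p = 0.0838).

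PU.1 binds DNA at sites built around the letters GAGGAA, so this string was looked for in the promoters of these genes. The RefSeq promoter table (GRCm38.p6, 250 bases before to 50 after each start) holds 33 of the 45. GAGGAA, or TTCCTC on the other strand, occurs in 19 of these 33 (57.6%), against 31.3% of 27025 genes with a window. The longer string GAGGAAGT, which contains it, occurs in 5 of 33 (15.2%), against 3.69%, and TATAAA, the classical core promoter box, occurs in 5 of 33 (15.2%), against 15.7%. Within 60 bases upstream of the start, GAGGAA occurs in 9 of 33 (27.3%), against 7.02% of all: C1qb, P2ry13, Trem2, Fcgr1, Fcgr3, Laptm5, Cd53, Aif1 and Vav1. All 9 are among the genes lower on day 1 in the fit with no filter, but so are 29 of the 33 genes with a window. Fcer1g, Irf8, Ly86 and Lyz2 also fell and hold no GAGGAA in the 250 bases before the start. Whether the string goes with the fall was not tested. The genes were not chosen by sequence, a match is not a bound site, and PU.1 binding was not measured. As examples of where the string lies, the 100 bases before the start are printed for 5 of the 9, with the string in capitals. They are also printed for Olfml3 and Lgals3, which did not fall and whose printed bases hold none. Each runs 5′ to 3′ on the gene's strand and ends at the base before an annotated start. For Laptm5 that start lies inside the gene's span, which begins at chr4:130912890. The windows are chr4:136886201-136886300 on the minus strand for C1qb, chr17:48346301-48346400 on the plus strand for Trem2, chr4:130913216-130913315 on the plus strand for Laptm5, chr3:106790150-106790249 on the minus strand for Cd53, chr17:57279000-57279099 on the plus strand for Vav1, chr3:103738002-103738101 on the minus strand for Olfml3 and chr14:47373760-47373859 on the plus strand for Lgals3.
C1qb: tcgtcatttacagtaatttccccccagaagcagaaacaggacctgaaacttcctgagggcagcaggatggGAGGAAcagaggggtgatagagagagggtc
Trem2: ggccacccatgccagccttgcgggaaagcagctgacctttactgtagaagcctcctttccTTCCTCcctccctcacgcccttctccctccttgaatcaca
Laptm5: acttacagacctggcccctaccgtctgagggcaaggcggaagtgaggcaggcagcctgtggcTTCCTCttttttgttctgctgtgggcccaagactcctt
Cd53: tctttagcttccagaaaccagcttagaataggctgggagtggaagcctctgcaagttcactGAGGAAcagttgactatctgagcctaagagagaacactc
Vav1: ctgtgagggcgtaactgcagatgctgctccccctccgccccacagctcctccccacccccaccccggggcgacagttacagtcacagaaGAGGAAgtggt
Olfml3: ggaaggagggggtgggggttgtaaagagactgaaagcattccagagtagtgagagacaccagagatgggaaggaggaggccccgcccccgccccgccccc
Lgals3: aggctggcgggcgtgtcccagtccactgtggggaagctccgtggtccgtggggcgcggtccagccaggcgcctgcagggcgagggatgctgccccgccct

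Csf1r, the receptor on which microglial survival depends, was at 18.1, 16.8 and 14.5 FPKM on day 3, at 7.10, 7.01 and 6.53 on day 1 and at 17.6, 17.5 and 16.9 in control. Day 1 lay below both other groups without overlap, and the fall against control was 2.44-fold (interval 2.19 to 2.72, limma adjusted p = 1.21e-07). The gene shares 15.1% of its exon bases with Hmgxb3 on the opposite strand, which was at 7.31 to 7.96 FPKM in all libraries, and the sources used here do not say how strand was handled in counting. Its ligand genes, which astrocytes and other cells express, moved less. Csf1 was at 45.5, 46.2 and 47.6 FPKM on day 3, at 36.2, 39.1 and 36.5 on day 1 and at 46.0, 49.1 and 48.8 in control, a 1.26-fold fall on day 1 (adjusted p = 8.06e-06). Il34 was at 5.02 to 5.42 FPKM on day 3, 4.50 to 4.75 on day 1 and 4.14 to 4.78 in control, and did not pass on day 1 (adjusted p = 0.393). The ratio of Csf1 to Csf1r was 2.51 to 3.28 on day 3, 5.10 to 5.58 on day 1 and 2.62 to 2.89 in control, so ligand RNA per receptor RNA was higher in every day 1 library than in any other.

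Genes often used to tell resting microglia from other macrophages did not move together. Tmem119 (chr5:113793729-113800396), a membrane protein used as a microglia marker in the brain and also known from bone-forming cells, was at 8.61, 8.48 and 9.39 FPKM on day 3, at 14.8, 14.1 and 15.6 on day 1 and at 8.64, 8.69 and 8.96 in control. It rose 1.72-fold on day 1, with a log2 interval of 0.67 to 0.90 (limma adjusted p = 4.09e-07), and all 3 day 1 libraries exceeded the other 6. Cx3cr1 (chr9:120048683-120068296), the receptor for the chemokine CX3CL1, was at 14.1, 13.8 and 10.7 FPKM on day 3, at 5.82, 6.38 and 5.89 on day 1 and at 13.3, 15.0 and 13.4 in control, and fell 2.23-fold on day 1. It moved opposite to Tmem119, and its day 1 libraries did not overlap with the other 6 either.

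P2ry12 (chr3:59216271-59262985), the ADP receptor of resting microglia, was at 0.858, 0.961 and 0.639 FPKM on day 3, at 0.562, 0.449 and 0.441 on day 1 and at 0.594, 0.926 and 0.534 in control. These values rest on 67, 90 and 60 reads on day 3, on 34, 32 and 26 on day 1 and on 46, 91 and 43 in control. Day 1 and control overlapped, and P2ry12 did not pass on day 1 in the fit with no filter (log2 fold change -0.37, interval -0.86 to 0.11, adjusted p = 0.205). Day 3 exceeded day 1 without overlap (1.55-fold, adjusted p = 0.0449). Its neighbour P2ry13, a related ADP receptor, had 41 to 60 reads on day 3, 3 to 11 on day 1 and 29 to 79 in control, and was 3.46-fold lower on day 1 (interval 2.02 to 5.94, adjusted p = 0.00242 with no filter). Gpr34, a lysophosphatidylserine receptor, was 2.04-fold lower on day 1 by the same fit. Siglech, a sialic acid receptor used to mark microglia, had 0 or 1 read in every library, below the 3 reads that a count of 0 allows, so no level or fold is given.

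Olfml3, a secreted olfactomedin-family protein, was at 16.2, 15.4 and 14.0 FPKM on day 3, at 14.2, 13.8 and 13.5 on day 1 and at 14.4, 13.8 and 14.5 in control. The groups overlapped and its log2 fold change on day 1 was -0.01 (interval -0.12 to 0.10, limma adjusted p = 0.871). Selplg, the ligand of P-selectin on leukocytes, averaged 1.41 ± 0.327 FPKM on day 3, 0.703 ± 0.137 on day 1 and 1.45 ± 0.304 in control (SD, n = 3 each), and fell 1.89-fold on day 1.

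**Figure D2:**
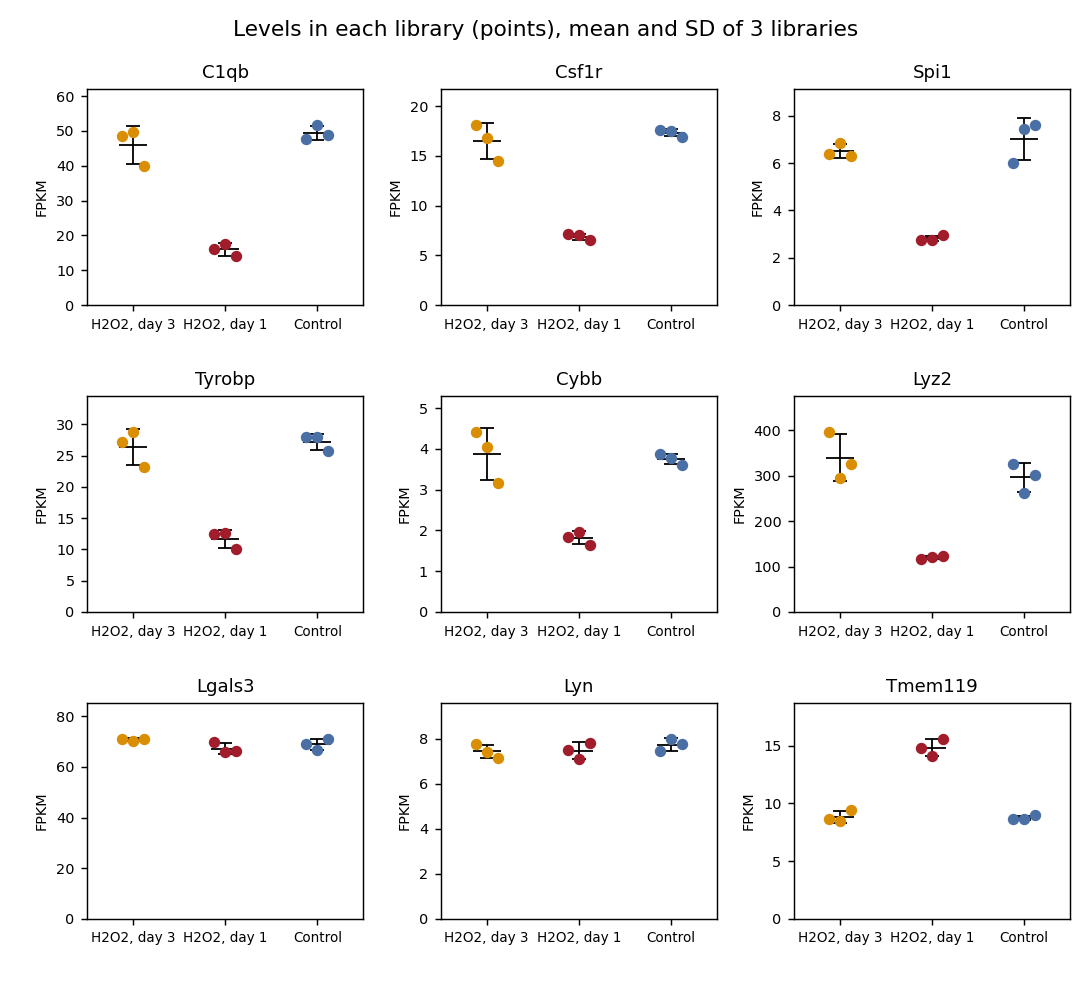
FPKM of 9 of the genes in each library (points), with the mean and SD of the 3 libraries of each group; the axes differ between genes and start at 0. Day 1 points lie below the other groups for the genes that fell, above them for Tmem119 (14.1 to 15.6 FPKM), and overlap with control for Lgals3 and Lyn.

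The ITAM adaptors and the receptors grouped with them here fell on day 1 in all 6 cases, against 31.1% of all genes tested. Their log2 fold changes ran from -1.47 to -0.88. Tyrobp (chr7:30413782-30417582), the adaptor DAP12 of TREM2, was at 27.2, 28.8 and 23.1 FPKM on day 3, at 12.4, 12.6 and 10.0 on day 1 and at 28, 27.9 and 25.7 in control. Fcer1g (chr1:171229572-171234349), the common Fc receptor gamma chain, was at 25.9, 23.5 and 19.1 FPKM on day 3, at 7.77, 9.11 and 7.79 on day 1 and at 24.6, 23.1 and 22.5 in control. Trem2 (chr17:48346401-48352276), a lipid-sensing receptor, was at 14.2, 13.6 and 10.3 FPKM on day 3, at 4.50, 4.79 and 4.62 on day 1 and at 12.7, 13.2 and 11.8 in control. Day 1 lay below both other groups for all 3, with no overlap, and day 3 replicate 3 was again the lowest of its group. Against control, day 1 was 2.77-fold lower for Fcer1g, 2.61-fold for Trem2 and 2.28-fold for Tyrobp (limma adjusted p of 5.08e-07, 9.47e-07 and 1.62e-06). Day 3 differed from control by -0.03 for Tyrobp, -0.03 for Fcer1g and 0.02 for Trem2 on the log2 scale, and none passed.

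The Fc receptors fell less evenly. Fcgr1, the high-affinity receptor for IgG, was 2.25-fold lower on day 1 than in control, and Fcgr3, a low-affinity activating receptor, was 1.84-fold lower (interval 1.66 to 2.04). Fcgr2b (chr1:170960558-170976071), the inhibitory Fc receptor, was at 2.77, 2.51 and 2.24 FPKM on day 3, at 0.684, 0.511 and 0.618 on day 1 and at 1.84, 2.16 and 2.28 in control. It fell 3.05-fold on day 1 (interval 2.51 to 3.72), and the intervals of Fcgr2b and Fcgr3 do not overlap, although that difference was not tested. Fcgr2b and Fcgr3 have closely similar sequences in the part that binds IgG, and the sources used here do not say how reads matching both were assigned. Clec7a, the receptor dectin-1 for fungal glucans, was 2.15-fold lower on day 1, and Cd33, an inhibitory sialic acid receptor, was 2.11-fold lower in the fit with no filter.

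Both genes of endotoxin sensing fell on day 1, by different amounts, where 31.1% of all genes tested fell. Ly86 (chr13:37345345-37419036), which encodes MD-1, the partner of the toll-like receptor homologue CD180, was at 5.81, 6.38 and 3.98 FPKM on day 3, at 1.61, 2.05 and 1.48 on day 1 and at 5.47, 5.69 and 5.92 in control. Its log2 fold change on day 1, -1.66, was the lowest of the 38. Cd14, which hands endotoxin to TLR4, was at 11, 9.24 and 10.6 FPKM on day 3, at 6.23, 5.94 and 6.69 on day 1 and at 9.84, 9.14 and 10.3 in control. Day 1 did not overlap with the other groups for either gene, and Cd14 fell 1.51-fold (interval 1.36 to 1.68, limma adjusted p = 3.24e-05), against 3.15-fold (2.47 to 4.02) for Ly86.

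Of 6 genes of the lysosome, killing and uptake of particles, 5 fell on day 1, against 31.1% of all genes tested. Lyz2 (chr10:117277541-117282272), the lysozyme of macrophages, was the most abundant of the 45, at 397, 296 and 327 FPKM on day 3, at 117, 121 and 124 on day 1 and at 327, 263 and 301 in control. It fell 2.40-fold on day 1 (interval 2.06 to 2.79, limma adjusted p = 1.51e-06), and the day 3 and control values overlapped. Lyz2 has a near copy, Lyz1, which was listed with at most 8 reads per library. Cd68 (chr11:69664213-69666170), a lysosomal glycoprotein, was at 25.1, 26.1 and 21.1 FPKM on day 3, at 7.46, 9.30 and 8.74 on day 1 and at 22.6, 26.1 and 19.8 in control, and fell 2.6-fold. Mpeg1, the pore-forming perforin-2, was 2.43-fold lower on day 1, Laptm5, a lysosomal membrane protein, was 2.20-fold lower, and the protease gene Ctss was 1.94-fold lower.

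Lgals3 (chr14:47373860-47386167), which encodes galectin-3, a sugar-binding protein made by activated microglia but also by other cells, was the sixth. It was at 71.0, 70.2 and 71.1 FPKM on day 3, at 69.7, 65.8 and 66.1 on day 1 and at 68.9, 66.6 and 71.1 in control. Day 1 and control overlapped, and the log2 fold change was -0.00, with an interval of -0.07 to 0.07 (limma adjusted p = 0.949). The ratio of Lgals3 to C1qb FPKM was 1.41 to 1.79 on day 3, 3.73 to 4.70 on day 1 and 1.29 to 1.46 in control.

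The 3 listed subunits of the NADPH oxidase all fell on day 1, against 31.1% of all genes tested. Cybb (chrX:9435252-9487766), the catalytic subunit gp91phox, was at 4.42, 4.04 and 3.16 FPKM on day 3, at 1.83, 1.97 and 1.65 on day 1 and at 3.87, 3.77 and 3.61 in control. The day 1 values lay below all others, and the fall was 1.97-fold (interval 1.66 to 2.34, limma adjusted p = 2.53e-05). Ncf1, the organizer p47phox, was 2.09-fold lower and Rac2, the small GTPase of the complex, was 2.49-fold lower. Ncf1 shares 11.1% of its exon bases with Gtf2ird2 on the opposite strand, which was at 2.80 to 3.99 FPKM.

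Among leukocyte membrane proteins, Ptprc (chr1:138062859-138175756), which encodes CD45, the phosphatase on all leukocytes, was at 2.01, 1.80 and 1.45 FPKM on day 3, at 0.910, 0.875 and 0.697 on day 1 and at 1.70, 1.74 and 1.78 in control. The fall was 1.95-fold (interval 1.59 to 2.40, limma adjusted p = 0.000103), with no overlap. Cd52, a small glycoprotein of leukocytes, was 3.07-fold lower on day 1 and the tetraspanin Cd53 was 1.81-fold lower. Cd52 shares 14.5% of its exon bases with Crybg2 on the opposite strand, which never exceeded 0.0182 FPKM. Cd86, a costimulatory ligand for T cells, had 11 to 19 reads on day 3, 4 to 12 on day 1 and 17 to 22 in control, and passed on day 1 in the fit with no filter (1.58-fold lower, adjusted p = 0.0338).

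Of 6 genes of intracellular signalling and actin, 5 fell on day 1, against 31.1% of all genes tested. Aif1 (chr17:35170986-35176083), which encodes the common microglia stain IBA1, an actin-binding protein, was at 2.07, 2.36 and 1.83 FPKM on day 3, at 1.22, 0.691 and 0.836 on day 1 and at 2.51, 3.23 and 2.85 in control, from 18 to 116 reads per library. It was 2.91-fold lower on day 1 than in control (interval 2.22 to 3.82, limma adjusted p = 2.59e-05), and its 3 groups did not overlap. Coro1a, the actin regulator coronin 1A, was 2.74-fold lower, Vav1, an exchange factor of blood cells for small GTPases, 2.5-fold, and Plek, the protein kinase C substrate pleckstrin, 1.76-fold. Plek shares 4.44% of its exon bases with Cnrip1 on the opposite strand, at 12.4 to 13.3 FPKM, and Coro1a shares 0.934% with Bola2, at 36 to 48.7 FPKM. Apbb1ip, the integrin-activating adaptor RIAM, fell 1.19-fold (interval 1.07 to 1.32, adjusted p = 0.00881). Lyn, a Src-family kinase that is not limited to myeloid cells, was at 7.76, 7.41 and 7.16 FPKM on day 3, at 7.49, 7.10 and 7.84 on day 1 and at 7.45, 8.01 and 7.77 in control, with overlapping groups and a log2 fold change of -0.02 (interval -0.13 to 0.09).

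Over the 45 genes the falls on day 1 thus formed a main band and a few genes outside it. Beside the 28 genes at -1 or less, 9 lay between -1 and -0.5 and 8 lay above -0.5. These 8 were Apbb1ip, Lgals3, Lyn, Olfml3, P2ry12, Sall1, Tmem119 and the barely detected Siglech, whose fitted value carries no information. Without Siglech the median of the other 44 genes was -1.16. The libraries of day 1 and control did not overlap for 34 lower and 1 higher of the 38 genes, against 37.3% and 28.8% of all genes tested. Together the 45 genes summed to 1520, 1380 and 1260 CPM (recovered reads scaled by library total) on day 3, 707, 714 and 688 on day 1 and 1380, 1370 and 1340 in control. Without Lyz2 and Lgals3, the 2 with the highest FPKM, these sums were 996, 967 and 815 on day 3, 485, 493 and 464 on day 1 and 942, 999 and 923 in control. Day 1 stood apart in both sums, and day 3 and control overlapped.

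**Figure D3:**
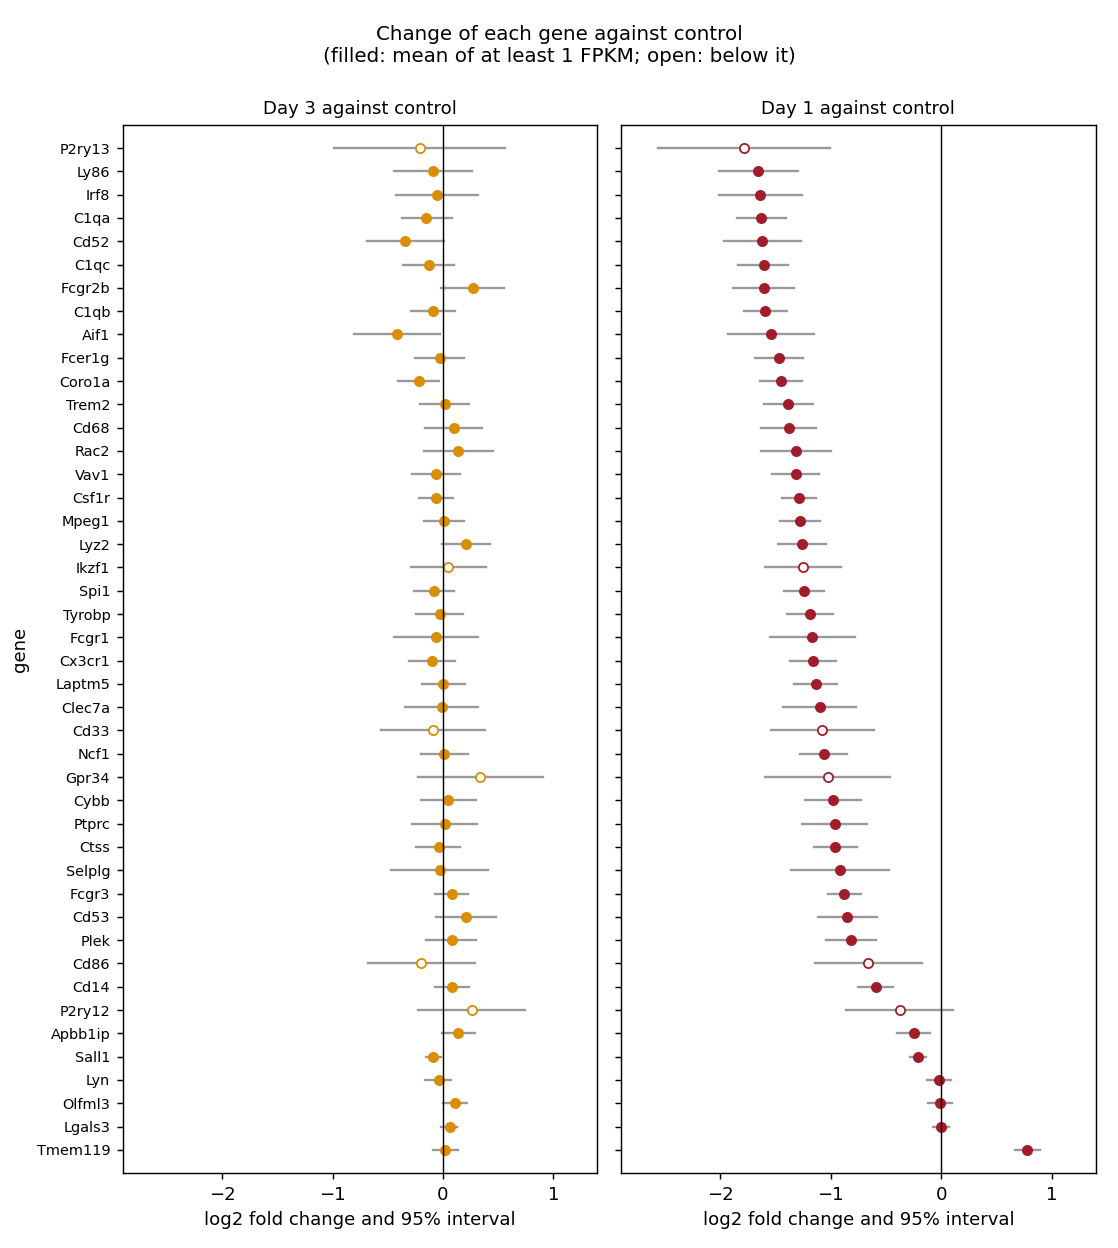
Log2 fold change against control of each gene but Siglech, with its 95% interval, on day 3 and on day 1; filled points had a mean of at least 1 FPKM and open points less. Intervals for day 1 lie left of 0 for 39 genes and right of 0 for Tmem119, while those for day 3 gather around 0.

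On day 3 against control, 20 of the 38 log2 fold changes were negative, 17 positive and 1 was 0.00, and 35 of the 38 intervals included 0. For 35 of the 38 the whole interval lay within -0.5 to 0.5. All genes tested also centred near 0, with a median of 0.01 and quartiles of -0.06 and 0.07. How many of all genes meet these bounds was not counted, so the counts show nothing particular to the 38. The 3 genes whose intervals left out 0 were all lower and were those whose day 3 and control libraries did not overlap, against 17.8% of all genes tested that lay lower without overlap. Aif1 was 1.34-fold lower (interval 1.02 to 1.76, limma adjusted p = 0.15), Coro1a 1.17-fold lower (1.02 to 1.33, adjusted p = 0.114) and Sall1 1.06-fold lower (1.01 to 1.11, adjusted p = 0.0838). Lyz2 lay at the other end, with a log2 fold change of 0.21 (interval -0.01 to 0.43, adjusted p = 0.207).

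Other settings moved single genes past the threshold on day 3. Limma-voom on the recovered reads called Coro1a lower (log2 fold change -0.24, adjusted p = 0.0254) and Lyz2 higher (0.21, adjusted p = 0.0403). Lyz2 also passed without the 2 libraries with the most Rn45s, control replicate 1 and day 3 replicate 2 (0.37, adjusted p = 0.0347). Without day 3 replicate 3, Olfml3 passed as higher (0.17, adjusted p = 0.0318), and the median of the 38 genes was 0.08, against -0.02 with that library. No other of the 38 passed under any of the 19 settings tried.

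Between the treated groups, day 3 was higher than day 1 for 34 of the 38 genes and lower for Tmem119, against 27.9% and 28.4% of all genes tested. The comparison shares its day 1 libraries with the one above, so the 2 are not independent. The median over all 45 genes was a log2 fold change of 1.12, or 2.17-fold, against 0.00 over all genes tested. Among the 38 genes tested, the largest rises were those of Fcgr2b at 3.67-fold, Irf8 at 3.00-fold and Ly86 at 2.96-fold (limma adjusted p of 9.78e-07, 2.11e-05 and 1.41e-05). Tmem119 was 1.69-fold lower on day 3 than on day 1 (interval 1.56 to 1.83, adjusted p = 8.92e-07). Lyn, Olfml3 and Lgals3 did not pass between the days (adjusted p of 0.743, 0.0689 and 0.146), although the day 3 libraries of Lgals3 all exceeded those of day 1. With no filter, 39 of 45 were higher on day 3 and 1 was lower, against 18.6% each of all genes above 0. Without day 3 replicate 3, the median of the 38 genes was 1.23, against 1.13 with it.

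A further list of 40 microglia and myeloid genes outside the 45, chosen like them with earlier results of these data known, showed similar counts. Of 34 tested on day 1, 31 fell and 2 rose, against 31.1% of all genes tested in either direction, and the median over all 40 was -1.02. The largest falls were those of Pld4, a phospholipase D family exonuclease of myeloid cells (3.60-fold), Cd180, the partner of Ly86 (3.12-fold), and Cyth4, an exchange factor for Arf GTPases (2.86-fold). Cd180 was at 4.82, 4.70 and 4.19 FPKM on day 3, at 1.36, 1.66 and 1.28 on day 1 and at 4.82, 5.08 and 4.39 in control. Like Ly86 and most of the listed genes, it was lowest in the day 1 libraries. Runx1, a transcription factor of blood development that is also expressed outside blood, rose 1.85-fold on day 1 (limma adjusted p = 2.83e-06). Syk, the kinase that binds ITAM motifs, did not pass (adjusted p = 0.237). On day 3 none of the 34 passed against control, where 7.37% of all genes tested were higher and 6.45% lower. Between the days 31 were higher and 2 lower on day 3, against 27.9% and 28.4% of all genes tested.

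Most measurable markers of macrophages at the borders of the brain fell on day 1. Stab1, a scavenger receptor, was at 25.1, 23.4 and 20.5 FPKM on day 3, at 4.60, 4.95 and 4.50 on day 1 and at 21.4, 23.1 and 20.1 in control, a 4.42-fold fall on day 1 (limma adjusted p = 6.40e-09). Pf4, the chemokine platelet factor 4, fell 3.44-fold, and Ms4a7, a membrane protein of border macrophages, fell 1.96-fold. All 4 genes tested, of the 10 listed, fell on day 1, against 31.1% of all genes tested that fell. None of the 4 passed on day 3 against control, where 7.37% of all genes tested were higher and 6.45% lower. With no filter, 6 of the 10 were lower on day 1, Mrc1 and F13a1 among them, against 21.6% of all genes above 0. Cbr2, with 12 to 19 reads in every library, did not pass in that fit (log2 fold change 0.17, interval -0.29 to 0.63). The summed level of the 10 was 28.1 to 34.0 FPKM on day 3, 8.45 to 8.95 on day 1 and 27.3 to 32.4 in control, most of it from Stab1. Lyve1, Cd163 and Clec10a were never above 0.5 FPKM. Microglia and border macrophages share many of the 45 genes, and their shares in these values were not tested.

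Genes that microglia raise in disease models went both ways on day 1. Several of them are known to be expressed by astrocytes as well. Of 8 tested, 2 rose, Axl (1.24-fold) and Ctsd (1.15-fold), and 4 fell, among them Cd9 (1.43-fold), Ctsb (1.39-fold) and Gpnmb (1.3-fold), where 31.1% of all genes tested rose and 31.1% fell, so the count of rises is near the background. Against control on day 3, 3 were higher, Ctsd (1.22-fold), Gpnmb (1.14-fold) and Ctsb (1.09-fold), and Cd9 was lower (1.21-fold), against 7.37% and 6.45% of all genes tested. Itgax and Cst7, which mark that state more narrowly, were never above 0.5 FPKM.

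The other 5 tested genes for ligands that microglia sense moved by less than 2-fold on day 1. Tgfb1, whose product keeps microglia in their resting state, rose 1.69-fold (limma adjusted p = 5.32e-06), Cx3cl1, the ligand of CX3CR1, rose 1.17-fold, and Cd200, which restrains microglia, rose 1.17-fold. Gas6, a bridge from dying cells to the receptor AXL, fell 1.12-fold, and Pros1 did not pass (adjusted p = 0.191). On day 3 Gas6, Il34 and Pros1 were higher than in control, by 1.17-fold, 1.17-fold and 1.11-fold.

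Markers of neutrophils and lymphocytes were at or near 0, while some listed for monocytes and mast cells were not. None of 8 neutrophil markers and none of 8 lymphocyte markers exceeded 0.5 FPKM in any library. The summed neutrophil level was 0.0398 to 0.215 FPKM on day 3, 0 to 0.154 on day 1 and 0.153 to 0.273 in control, and the lymphocyte sum was 0.177 to 0.280 FPKM on day 3, 0.173 to 0.372 on day 1 and 0.240 to 0.373 in control. Of the monocyte markers, Ly6c2 was at 0 in every library, Ccr2 was at or near 0, and Plac8 had 13 to 21 reads on day 3, 30 to 39 on day 1 and 4 to 18 in control. Plac8 was 4.18-fold higher on day 1 (interval 2.6 to 6.73, limma adjusted p = 0.000486 with no filter), opposite in direction to most of the 45 genes. Of 5 mast cell markers, Cpa3 and Mcpt4 were at 0 in every library and Tpsb2 had at most 1 read. Kit, the receptor for stem cell factor, and Hdc, the enzyme that makes histamine, are not limited to mast cells and were both detected. Kit was at 1.84 to 2.19 FPKM on day 3, 1.5 to 1.79 on day 1 and 2.22 to 2.74 in control, and was 1.46-fold lower on day 1 (limma adjusted p = 0.000937). Hdc was at 0.669 to 0.762 FPKM on day 3, 0.299 to 0.362 on day 1 and 0.922 to 1.16 in control, and was 2.63-fold lower on day 1 (adjusted p = 3.43e-05 with no filter). The summed mast cell level was 2.52 to 2.86 FPKM on day 3, 1.86 to 2.09 on day 1 and 3.26 to 3.9 in control, and its part in the results was not tested.

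Markers of the other glia and of fibroblasts also moved on day 1, when 31.1% of all genes tested fell and 31.1% rose. Of 10 oligodendrocyte lineage markers, 9 fell and 1 rose on day 1, and 7 were called lower than control on day 3, against 6.45% of all genes tested, among them Gpr17 at 4.24-fold, Bcas1 at 4.15-fold and Sox10 at 2.58-fold. Their summed level was 539 to 572 FPKM on day 3, 430 to 463 on day 1 and 626 to 663 in control. Of 10 astrocyte markers, 6 fell and 2 rose on day 1, the glutamate transporter gene Slc1a2 by 1.77-fold at most, with rises below the share over all genes. On day 3, 3 of the 10 were lower than control and 0 higher, against 6.45% and 7.37% of all genes tested. The astrocyte sum was 2570 to 2610 FPKM on day 3, 2070 to 2340 on day 1 and 2800 to 2870 in control. Of 7 fibroblast markers tested, 5 rose and 2 fell on day 1, and 5 were higher than control and 0 lower on day 3. The sum of all 8 was 1140 to 1390 FPKM on day 3, 2080 to 2220 on day 1 and 963 to 1040 in control. All 3 sums differed between day 1 and control without overlap, and their part in the results was not tested.

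**Figure D4:**
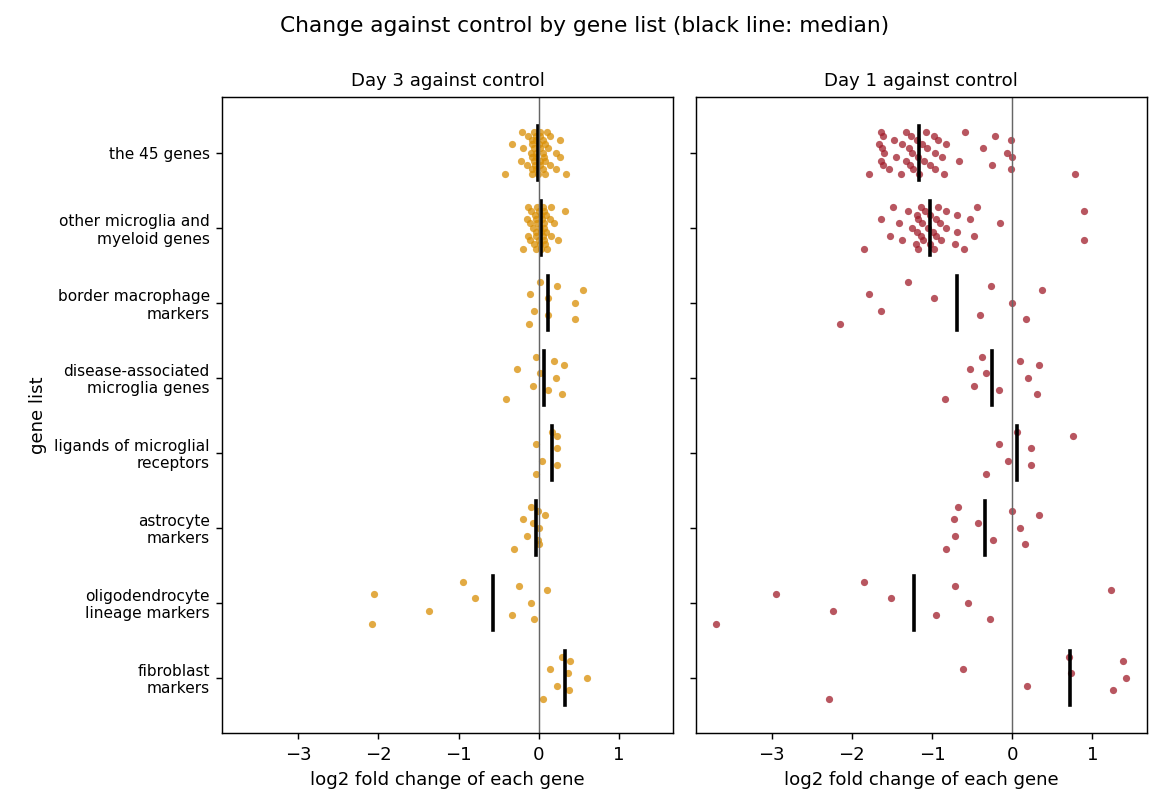
Log2 fold change of every gene with a value above 0 in each list (points), with the list's median (black line), for day 3 against control and day 1 against control on 1 shared axis. Genes with almost no reads are drawn at a fitted value near 0. On day 1 the 45 genes and the other microglia and myeloid genes centre at -1.16 and -1.02, and on day 3 at -0.01 and 0.02, whereas the oligodendrocyte markers centre at -1.23 on day 1 and -0.57 on day 3.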

How the data were processed

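RNA from mouse cortical astrocyte cultures was sequenced in 9 libraries, 3 for each of 3 groups. The deposited table holds FPKM, computed by the authors for each library. STAR 2.7.3a, cutadapt 2.6, FastQC 0.12.1 and DESeq2 appear in the submitters' processing notes, which name mm10 and GRCm38 as builds. The sources used here do not name the counting program, the annotation, or the handling of strand and of reads matching several genes, which affect genes that overlap or have near copies.

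For all 20350 genes above 0 the FPKM gave whole reads to within 0.01 read, so depth is known. A count model was planned for a file of counts; as the deposited file holds FPKM, values were rescaled by median-of-ratios factors (0.976 to 1.02), taken as log2(FPKM + 0.1), and fitted together over the 12611 genes that averaged 1 FPKM or more, using R 4.3.3 and limma 3.58.1 (trended prior variance, group as the only term). Tests were two-sided, p-values were Benjamini-Hochberg adjusted over all genes tested, and intervals are at 95%. The fit was tested on simulated data. The 45 genes, the other gene lists and the rule for naming genes were chosen with earlier results of these data known. Values per library are given for the genes named in that rule whatever they show and for the largest changes among called genes; Sall1, Olfml3, Lyn and the reads of some low genes were added after their values were seen. Coordinates and promoters are from RefSeq GRCm38.p6, and exon overlaps from GENCODE vM21. The 19 other settings covered the pseudocount, the filter, the scaling, the libraries in the fit, a replicate block, limma-voom on recovered reads and each library left out. Values of a few listed genes are not reported here. Figures were drawn with matplotlib 3.10.9.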

Additional observations from a re-analysis of the deposited data

Results flagged for a closer look

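For 35 of the 38 genes tested the change against control differed between the treated groups, by the direct comparison of day 3 with day 1 in the same limma fit. Of these, 34 were higher on day 3 than on day 1 and 1, Tmem119, was lower, against 27.9% and 28.4% of all genes tested. The control mean cancels in this comparison, whose fold changes rest on 3 libraries of day 3 and 3 of day 1. The spread behind its p-values was estimated from all 9 libraries, controls included.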

How the results depend on the processing

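On day 1 against control, 34 of 38 genes were lower and 1 higher in every setting that kept these 38 genes, except quantile normalization with 35 lower. A lower filter of 0.2 FPKM gave 38 lower of 43, and no filter 39 of 45, each with 1 higher. Over all genes in the fit, 31.1% fell and 31.1% rose in the main test, and 21.6% and 20.7% with no filter. Over all genes, quantile normalization called 3854 lower and 3912 higher on day 1 against control. FPKM as deposited gave 4348 lower and 3319 higher, against 3916 and 3923 in the main test. For the other settings, except limma-voom on day 3, shares over all genes are not given here. Medians moved with a pseudocount of 1, to -0.92 on day 1 against control (-1.18 otherwise) and 0.90 for day 3 against day 1 (1.13 otherwise). Limma-voom called 1 gene lower and 1 higher on day 3 against control, where the main test called 0. It called 9.06% of all genes tested lower and 10.5% higher there. Leaving out control replicate 1 and day 3 replicate 2 together, chosen after seeing the data, called 1 higher. Leaving out each library in turn gave 0 to 1 called higher on day 3 against control, and medians from -0.07 to 0.08 there, from -1.23 to -1.17 on day 1 against control and from 1.09 to 1.23 for day 3 against day 1. The gene called was Olfml3, without day 3 replicate 3. Of single genes, Lgals3 passed under quantile normalization on day 1 against control (-0.10, limma adjusted p = 0.0154) and for day 3 against day 1 (0.14, adjusted p = 0.00223), and Olfml3 passed for day 3 against day 1 from FPKM as deposited (0.14, adjusted p = 0.0403) and without day 3 replicate 3 (0.18, adjusted p = 0.00434); the cause was not tested. No direction was reversed among called genes. Deviations of libraries with the same replicate number had correlations of only -0.08 to 0.11, against -0.15 to 0.15 for libraries with different numbers. Such weak correlations cannot settle whether the numbers pair the libraries, which is not known. With the replicate number as a block, 34 genes were lower and 1 higher on day 1 against control, and 0 on day 3 against control. In that fit 34 were higher and 1 lower for day 3 against day 1. Low counts limit Siglech, P2ry13, Cd86, Gpr34, Aif1 and P2ry12, with at most 116 reads in any library.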
